A study of Mus musculus with 24 samples.

Results

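The comparison described here set tumour-bearing bone marrow of mice carrying Sca1-BCR/ABLp190 with a heterozygous Pax5 allele (7 arrays, called heterozygous leukaemias) against pro-B and pre-B cells taken before leukaemia from mice of the same genotype (3 arrays, called heterozygous precursors). These 10 arrays were chosen by their sample titles, out of 24 in the series, with no measured value used in the choice. Sca1-BCR/ABLp190 is a transgene that expresses the p190 form of the BCR/ABL fusion kinase from the promoter of the stem cell gene Sca1, and Pax5+/- mice have 1 working copy of Pax5. Both groups carried both changes, so the comparison is between stages of disease and not between genotypes. The 7 leukaemias were whole marrow with tumour in it, while the 3 precursor samples were named by cell type, so each stage difference is also a difference between marrow and selected cells, and the 2 cannot be told apart. For reference the series held leukaemic marrow of 2 mice and proB and preB cells of 3 mice with the transgene and no Pax5 allele in their labels (called here transgene-only), and, from wild-type marrow, B220+ B cells of 5 mice and proB and preB cells of 4. The mice were kept in a conventional facility where they met common pathogens, and neither ages nor strains are given in the sources used here. Each sample was read on its own Affymetrix mouse gene array, and all levels below are log2 intensities after RMA, the standard background correction, normalization and summary of Affymetrix probes. The number of arrays, and in particular the 3 precursor arrays, limits the precision.

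B lymphocytes are made in the marrow through pro-B and pre-B stages, in which RAG proteins cut and join the immunoglobulin genes and the surrogate light chain lets a newly made heavy chain be tested at the surface. EBF1, E2A (the product of Tcf3), FOXO1 and PAX5 form the core of the transcription factor network of these cells. PAX5 activates B lineage genes and represses genes of other lineages, and in mice its loss lets committed B cell precursors return to other fates. PAX5 is among the most often mutated genes in B cell precursor acute lymphoblastic leukaemia, and BCR/ABL is the oncogene of Philadelphia chromosome-positive cases. In pre-B cells PAX5 and IKZF1 are also known to hold down glucose uptake, and the title of the series names a metabolic shift as its subject.

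Of 19938 genes, 6737 passed limma's test of heterozygous leukaemia against heterozygous precursor at a Benjamini-Hochberg adjusted p of 0.05, which is 33.8% of all genes. Of these, 2267 genes were higher in leukaemia (11.4% of all genes) and 4470 were lower (22.4%). The genes higher in leukaemia moved further, since 944 rose and 413 fell by at least 1 on the log2 scale. The split depends on scaling. The median gene fell by 0.08 in the deposited values, and genes higher in leukaemia made up 33.6% of calls there, 30.6% after a further quantile normalization, 18.9% after median centring (median gene -0.19) and 49.9% after cyclic loess (median gene 0.00). With dim genes left out, the majority turned, with 2066 genes higher and 1717 lower (54.6% higher, median gene 0.05). Leaving out precursor 1, precursor 2 or precursor 3 lowered the count to 4043, 4097 and 4222 genes (21.2% of all genes for precursor 3). List counts below that leave out a precursor are to be read beside these lower totals. Arrays correlated at 0.954 to 0.983 within the leukaemias, 0.972 to 0.987 within the precursors and 0.930 to 0.957 between the groups, and 0 pairs of arrays were identical. In the text a change is a log2 difference ± SE from limma, every p is adjusted over all genes, and a call is described as lost where leaving out 1 of the 10 arrays took its adjusted p over 0.05. Of 186 genes that are named by rule and passed, 124 kept their call whichever array was left out. After quantile normalization 169 kept it, after median centring 181 and after cyclic loess 172. Among genes described below, Spn, Spry1, Cenpf, Hk2, Slc7a3, Oasl2 and Ido1 did not pass after quantile normalization. Cd55, Cd93, Cenpf, Cox8a, Slc7a3, Oasl2 and Ido1 did not pass after cyclic loess.

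Precursor 3 and leukaemia 7 stood apart within their groups. The mean level of 27 mitosis genes was 8.32 in precursor 3, against 9.92 and 9.77 in precursors 1 and 2, and precursor 3 was from a female by its X and Y chromosome transcripts while precursors 1 and 2 were from males (the leukaemias were from 4 males and 3 females). Leukaemia 7 had the lowest mean level of macrophage, stromal, endothelial, platelet, erythroid, neutrophil and T cell markers among the 7 leukaemias. List counts that changed most without precursor 3 or leukaemia 7 are given with the list.

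The promoters of 4 genes described below are shown first: Foxo1 and Cd72, which fell in leukaemia, Ifih1, which rose, and Prtn3, which separated the heterozygous from the other leukaemias. The sequences are RefSeq promoter windows of build GRCm38.p6, from 250 bases before to 50 bases after the gene start, written 5′ to 3′ on the strand of the gene. Capitals mark matches, on either strand, to the EBF1 motif (TCCC, any 2 bases, GGGA) in Foxo1 (chr3:52268087-52268386, plus strand), the PU.1 motif GAGGAAGT in Cd72 (chr4:43454577-43454876, minus strand) and in Prtn3 (chr10:79879417-79879716, plus strand), and the interferon-stimulated response element (GAAA, any 2 bases, GAAA) in Ifih1 (chr2:62646206-62646505, minus strand).
Foxo1: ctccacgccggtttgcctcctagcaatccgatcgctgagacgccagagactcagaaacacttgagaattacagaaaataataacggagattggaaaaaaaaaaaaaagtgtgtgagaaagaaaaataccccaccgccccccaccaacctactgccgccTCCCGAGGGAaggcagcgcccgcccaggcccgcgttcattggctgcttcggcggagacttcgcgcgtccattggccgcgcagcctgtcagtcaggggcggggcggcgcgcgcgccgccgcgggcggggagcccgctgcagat
Cd72: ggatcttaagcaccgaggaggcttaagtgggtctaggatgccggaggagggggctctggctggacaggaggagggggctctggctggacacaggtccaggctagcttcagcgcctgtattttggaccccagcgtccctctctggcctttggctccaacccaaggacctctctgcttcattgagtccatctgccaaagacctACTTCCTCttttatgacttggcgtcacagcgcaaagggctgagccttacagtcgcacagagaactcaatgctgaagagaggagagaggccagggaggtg
Ifih1: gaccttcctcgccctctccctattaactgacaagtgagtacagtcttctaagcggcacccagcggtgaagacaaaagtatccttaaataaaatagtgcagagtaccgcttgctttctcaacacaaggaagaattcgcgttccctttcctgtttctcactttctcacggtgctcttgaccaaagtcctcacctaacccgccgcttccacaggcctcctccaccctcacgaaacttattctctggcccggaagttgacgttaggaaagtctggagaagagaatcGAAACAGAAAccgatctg
Prtn3: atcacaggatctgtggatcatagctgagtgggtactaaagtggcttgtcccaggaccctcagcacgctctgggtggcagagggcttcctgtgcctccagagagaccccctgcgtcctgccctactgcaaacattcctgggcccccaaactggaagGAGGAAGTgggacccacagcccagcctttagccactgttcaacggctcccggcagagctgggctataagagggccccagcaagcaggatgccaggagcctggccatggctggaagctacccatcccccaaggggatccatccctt
Among 27025 genes with a window, 1.06% held the EBF1 motif, 3.69% the PU.1 motif and 3.99% the interferon motif. Foxo1 was the 1 gene of 21 B lineage transcription factors with a window that held the EBF1 motif. It was found in 0 of 8 surrogate light chain and V(D)J genes and 0 of 10 PAX5-repressed genes. The PU.1 motif was found in 0 of the 21 factors. Motif counts are given below for a few lists only. The EBF1 motif overlapped the interferon motif in 2 windows and no other overlap between the 3 motifs was found. A match is a string of letters in these windows and was not tested as a binding site.

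Most transcription factors of the B lineage were lower in leukaemia. Of 23 measured, 14 were lower and 1 was higher, with a median change of -1.86 against -0.08 over all genes and 33.8% of all genes called. Each of the 14 had all 7 leukaemias below all 3 precursors, as had 21.9% of all genes, and 32.5% of all genes had no overlap in either direction. The mean level of the list was 9.20 to 9.89 in the leukaemias and 11.16, 11.0004 and 11.12 in the precursors. In bulk RNA, fewer cells of a type and less RNA per cell cannot be told apart.

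Bach2, a repressor that holds B cells back from the plasma cell fate, had a lowest, median and highest level of 8.08, 8.93 and 9.19 in the leukaemias, against 12.21, 11.94 and 12.54 in the precursors. The gap between the groups was larger than the spread within either, and Bach2 fell by 3.55 ± 0.25 (adjusted p 6.82e-05), so that precursor levels were 11.7-fold higher. Ikzf3, which encodes the Ikaros family factor Aiolos, had levels of 7.53, 8.53 and 8.80 in the leukaemias and 11.77, 11.55 and 12.24 in the precursors. It fell by 3.53 ± 0.30 (adjusted p 0.000151). Lef1, a partner of beta-catenin in early B cells, had levels of 6.19, 7.20 and 9.22 in the leukaemias and 10.90, 10.80 and 10.37 in the precursors, a change of -3.39 ± 0.54 (adjusted p 0.00228). Leukaemia 5 supplied the highest of these Lef1 levels, and the next highest leukaemia was at 7.64.

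The core factors were lower too. Tcf3 had levels of 9.08, 9.59 and 9.92 in the leukaemias and 11.79, 11.52 and 11.62 in the precursors, a change of -2.17 ± 0.19 (adjusted p 0.000157). Foxo1, whose promoter is shown above, had levels of 8.32, 8.87 and 9.90 in the leukaemias and 11.32, 10.95 and 11.49 in the precursors, a change of -2.20 ± 0.32 (adjusted p 0.00153). Ebf1 spread widely among the leukaemias, at 9.55, 11.12, 8.37, 10.25, 11.72, 10.90 and 9.77 in arrays 1 to 7, against 12.68, 12.38 and 12.88 in the precursors. All 7 lay below the precursors and Ebf1 fell by 2.41 ± 0.62 (adjusted p 0.0167), but its call was lost without precursor 1 or precursor 3, with an adjusted p of up to 0.0603. Id3, an inhibitor of E2A that is itself induced by receptor signals, fell by 2.32 ± 0.18 (adjusted p 0.00012), with levels of 6.41, 6.56 and 7.14 in the leukaemias and 9.29, 9.01 and 8.62 in the precursors.

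Pax5 itself differed among leukaemias by more than it differed between the stages. Its levels were 8.45, 10.43, 9.93, 10.95, 8.37, 10.30 and 12.06 in leukaemias 1 to 7 and 11.80, 11.58 and 12.004 in the precursors. Leukaemia 7 lay above every precursor and leukaemias 1 and 5 were more than 3 log2 units below them. The change of -1.72 ± 0.72 did not pass the test (adjusted p 0.0895). The array does not separate the working from the mutant allele. Across the 7 leukaemias, the level of Pax5 showed no relation that passed an exact permutation test with the mean level of any of 8 gene lists (B lineage, neutrophil, macrophage, erythroid, platelet, stroma, NK cell and mitosis). Pearson's r lay between -0.47 for stroma and 0.10 for mitosis (n = 7, adjusted p 0.818 to 0.884 over the 8 lists), and Spearman's rho between -0.39 and 0.11 (adjusted p 0.96 to 1). Without leukaemias 5 and 1, whose Pax5 levels were farthest from the median, r was -0.96 for the macrophage list and -0.95 for the platelet list over the 5 others. Over all 7 leukaemias r was -0.43 and -0.20 for these lists. With only leukaemia 7 left out of the 7 it was 0.23 and 0.33, so the relation rests on single arrays.

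Other factors of the list also fell. Irf4 fell by 2.84 ± 0.45 (adjusted p 0.00223), Spib by 2.65 ± 0.36 (adjusted p 0.0012), Myb by 2.02 ± 0.48 (adjusted p 0.012), Pou2af1 by 1.94 ± 0.42 (adjusted p 0.00878) and Klf2 by 1.57 ± 0.23 (adjusted p 0.00175). Sox4 fell by 1.86 ± 0.47 (adjusted p 0.0156, up to 0.0614 without precursor 1 or 3), and Ikzf1 by 0.72 ± 0.16 (adjusted p 0.0109, and 0.0508 without precursor 3). Mef2c, a factor that supports early B cells, was the single member that rose, by 0.59 ± 0.13 (adjusted p 0.00909), with levels of 10.73, 11.24 and 11.31 in the leukaemias and 10.51, 10.52 and 10.55 in the precursors. Bcl6, Erg, Pou2f2, Irf8, Runx1, Spi1 and Bcl11a, with changes between -0.48 and 0.41, did not pass, nor did Pax5. Spi1, which encodes PU.1, changed by 0.07 ± 0.31 (adjusted p 0.87).

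**Figure D1:**
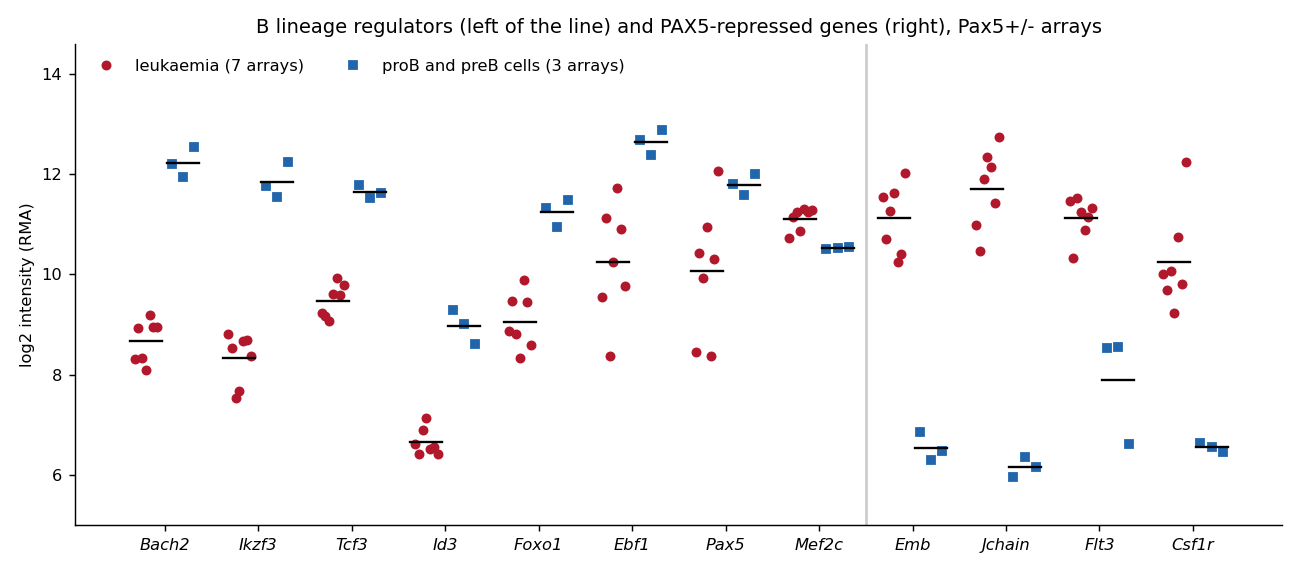
Log2 intensity of 8 B lineage regulators and 4 PAX5-repressed genes in the heterozygous leukaemias (circles, 7 arrays) and heterozygous precursors (squares, 3 arrays), where lines are group means. The circles lie below the squares for Bach2, Ikzf3, Tcf3, Id3, Foxo1 and Ebf1 and above them for Mef2c, Emb, Jchain, Flt3 and Csf1r, while Pax5 overlaps.

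Of 9 genes of the surrogate light chain and V(D)J recombination, 5 were lower and 0 were higher, with a median of -2.63, where 22.4% of all genes were lower. The leukaemias spread widely in these genes. Rag1, a subunit of the recombinase, was at 6.04, 8.81, 5.88, 5.88, 9.50, 8.28 and 5.56 in leukaemias 1 to 7 and at 11.14, 10.99 and 11.98 in the precursors. Leukaemias 2, 5 and 6 kept intermediate levels while the other 4 were at 6.04 or below, and Rag1 fell by 4.24 ± 0.92 (adjusted p 0.00864). Its partner Rag2 fell by 3.40 ± 0.65 (adjusted p 0.00512). Cd79a and Cd79b, the signalling chains of the receptor, fell by 2.63 ± 0.62 (adjusted p 0.0122) and 1.29 ± 0.26 (adjusted p 0.00586). Cd79b kept high levels of 11.31, 12.03 and 12.64 in the leukaemias, against 13.23, 13.14 and 13.48 in the precursors.

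Leukaemias 2, 5 and 6 were again highest for Vpreb3, a chaperone of the pre-B cell receptor, with 11.29, 11.03 and 11.66, while leukaemias 1, 3, 4 and 7 were at 8.03, 7.38, 7.39 and 7.38 and the precursors at 13.23, 13.31 and 13.35. Vpreb3 fell by 4.13 ± 1.11 (adjusted p 0.0198), and the call was lost without any single precursor (adjusted p up to 0.0622). Dntt, which adds untemplated bases at the joints, was at 10.39, 10.23 and 8.58 in leukaemias 2, 5 and 6 and between 5.63 and 7.10 in the other 4, against 11.14, 10.71 and 10.05 in the precursors. These groups overlapped and its change of -2.86 ± 1.09 did not pass (adjusted p 0.0684). Igll1 (-2.44, adjusted p 0.0932), Vpreb1 (-1.17, adjusted p 0.0743) and Vpreb2 (-0.60, adjusted p 0.116), which encode the surrogate light chain, did not pass either. Cd72, a B cell inhibitory receptor, had the same split, with 10.24, 10.40 and 10.31 in leukaemias 2, 5 and 6, against 7.45, 7.19, 6.36 and 6.49 in leukaemias 1, 3, 4 and 7. The precursors had 12.15, 12.10 and 12.57, and Cd72 fell by 3.93 ± 1.03 (adjusted p 0.0179, up to 0.0618 without a single precursor).

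Of 11 measured markers that define the B lineage, 9 were lower and 0 were higher, with a mean level of 8.88 to 10.72 in the leukaemias and 12.19 to 12.51 in the precursors. Among all genes 22.4% were lower. Without precursor 3 the count was 5, where 21.2% of all genes were called in either direction, and without leukaemia 7 it was 9. Fcrla, an intracellular Fc receptor homologue of B cells, fell by 4.19 ± 0.53 (adjusted p 0.000861), with levels of 6.63, 8.69 and 8.82 in the leukaemias and 12.09, 11.97 and 12.58 in the precursors. Signalling downstream of the receptor was mixed, with 6 of 16 genes lower and 2 higher, against 4 and 2 without any single precursor. That is 50% called with all arrays, against 33.8% of all genes. Syk, the kinase that binds the receptor chains, fell by 1.88 ± 0.15 (adjusted p 0.000114), Pik3ap1, an adaptor for PI3-kinase, by 1.50 ± 0.22 (adjusted p 0.0015), Prkcb by 1.29 ± 0.28 (adjusted p 0.00892) and Btk by 0.71 ± 0.11 (adjusted p 0.00195). Plcg2, a phospholipase of the same pathway, rose by 0.59 ± 0.12 (adjusted p 0.00684), and Rasgrp3, an activator of Ras, rose by 2.74 ± 0.58 (adjusted p 0.00786). Levels of Rasgrp3 were 8.42, 9.80 and 11.51 in the leukaemias and 7.35, 6.79 and 7.36 in the precursors. In 15 genes of this list with a promoter window, 4 held the PU.1 motif, namely Rasgrp3, Cd72, Vav1 and Inpp5d.

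Of 19 genes of the mature B cell surface 4 were lower and 1 higher, a share of 26.3% called against 33.8% of all genes, with a median of -0.09. Fcmr, the IgM Fc receptor, fell by 3.55 ± 0.54 (adjusted p 0.00192) and S1pr1, a receptor for exit into blood, by 1.65 ± 0.36 (adjusted p 0.00884). Cd55 fell by 1.50 ± 0.49 (adjusted p 0.0409), a call lost without each of leukaemias 2, 3, 4 and 5 and each precursor (adjusted p up to 0.152), and Cd37 by 0.72 ± 0.19 (adjusted p 0.0175, up to 0.0707 without precursor 1 or 3). Without precursor 3, 2 genes of this list were lower and 1 was higher. Gpr183, a receptor that positions B cells, rose by 2.31 ± 0.53 (adjusted p 0.0111), with levels of 7.83, 10.30 and 10.50 in the leukaemias and 7.31, 7.50 and 7.39 in the precursors.

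Genes that PAX5 is known to repress moved the other way. Of 13 measured, 8 were higher and 1 was lower (69.2% called, against 33.8% of all genes), with a median of 1.55. The 8 had all 7 leukaemias above all 3 precursors, as had 10.7% of all genes. Emb, an adhesion glycoprotein, was at 11.54, 10.71, 11.28, 11.62, 10.25, 10.41 and 12.03 in leukaemias 1 to 7 and at 6.85, 6.30 and 6.47 in the precursors, and rose by 4.58 ± 0.38 (adjusted p 0.000138), which is 23.9-fold. Jchain, which joins IgM and IgA into polymers in plasma cells, was at 10.47, 11.90 and 12.74 in the leukaemias and at 5.96, 6.35 and 6.15 in the precursors. It rose by 5.56 ± 0.44 (adjusted p 0.00012), which is 47.2-fold. Leukaemia 7, with the highest Pax5, also had the highest Emb and Jchain.

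Flt3, a receptor kinase of early progenitors, was at 10.33, 11.24 and 11.52 in the leukaemias and at 8.54, 8.54 and 6.62 in the precursors, a rise of 3.23 ± 0.42 (adjusted p 0.0009). Csf1r, the receptor for macrophage colony-stimulating factor, was at 9.24, 10.002 and 12.25 in the leukaemias and at 6.63, 6.55 and 6.47 in the precursors, a rise of 3.71 ± 0.54 (adjusted p 0.00156). Its highest level was in leukaemia 7, where the mean of the macrophage markers was lowest (7.75, against 8.51 to 9.91 in the other leukaemias). Csf1r is itself a member of that marker list, and which cells supplied its transcripts was not tested. Sdc1, a plasma cell proteoglycan, was the member that fell, by 1.59 ± 0.28 (adjusted p 0.00362), and Notch1, Prdm1 and Ccl3 were among those that did not pass.

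The plasma cell list as a whole was split, with 2 of 13 genes higher and 4 lower (46.2% called, against 33.8% of all genes). Its median was 0.01, whose sign turned under median centring (-0.11) and quantile normalization (-0.15). Xbp1, a factor of the secretory programme, rose by 0.81 ± 0.15 (adjusted p 0.00444). Sec11c, a subunit of signal peptidase, fell by 0.90 ± 0.18 (adjusted p 0.00631) and Herpud1, of endoplasmic reticulum stress, fell by 0.99 ± 0.23 (adjusted p 0.0112, and 0.0508 without precursor 3).

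Among surface genes of early progenitors 4 of 11 were higher and 3 were lower (63.6% called, against 33.8% of all genes). Kit, the stem cell factor receptor, was at 8.33, 9.85 and 10.88 in the leukaemias and at 7.12, 6.81 and 6.60 in the precursors, and rose by 2.80 ± 0.53 (adjusted p 0.00503). Cd34 rose by 1.61 ± 0.44 (adjusted p 0.0214, up to 0.0686 without a single precursor) and Spn, the CD43 sialoglycoprotein, by 0.54 ± 0.15 (adjusted p 0.0236, up to 0.0961 without a single precursor). Ly6d, Bst1 and Cd93, which mark committed B precursors, fell by 1.54, 2.08 and 1.12, and each of these calls was lost without any single precursor (adjusted p up to 0.0926, 0.0863 and 0.135) and that of Cd93 also without leukaemia 1, 3, 4, 6 or 7. Without precursor 3 the list had 2 higher and 0 lower, where 21.2% of all genes were still called. Il7r, the receptor that pre-B cells need for growth, stayed high at 10.92, 12.23 and 12.97 in the leukaemias, against 13.03, 12.84 and 13.17 in the precursors, and did not pass (-0.97, adjusted p 0.0716).

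Cytokine signalling genes were mixed. Of 17 in the list of cytokine receptors, JAK kinases and STAT5 targets, 4 were higher and 2 were lower, with a median of 0.34. The share called was 35.3%, against 33.8% of all genes, and without precursor 2 or precursor 3 the counts were 2 and 1. Socs2, a STAT5 target that damps cytokine signals, was at 9.27, 12.02 and 12.97 in the leukaemias and at 8.03, 8.41 and 8.55 in the precursors, and rose by 3.18 ± 0.75 (adjusted p 0.0119). Jak2 rose by 1.41 ± 0.33 (adjusted p 0.0112, and 0.0524 without precursor 2). Il2ra, a STAT5 target, fell by 1.63 ± 0.50 (adjusted p 0.0331, up to 0.113 without precursor 3), and its call was also lost without leukaemias 2, 3 and 4 and precursors 1 and 2. Bcl2l1, which encodes the survival factor BCL-XL, was at 7.55, 8.50 and 9.51 in the leukaemias and at 10.27, 10.09 and 10.41 in the precursors, and fell by 1.69 ± 0.34 (adjusted p 0.00631).

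Bcl2 moved opposite to Bcl2l1. It was at 10.12, 10.85 and 11.46 in the leukaemias and at 9.12, 8.75 and 7.76 in the precursors, and rose by 2.28 ± 0.34 (adjusted p 0.00161). In the BCL2 family as a whole 3 of 13 genes were higher and 5 were lower (61.5% called, against 33.8% of all genes). These were 3 and 2 without precursor 1 and 3 and 3 without precursor 3. The other members that rose were Bcl2l2, also a survival factor, by 0.61 ± 0.09 (adjusted p 0.00135), and Pmaip1, a killer protein induced by p53, by 0.75 ± 0.17 (adjusted p 0.0116). Bad fell by 0.33 ± 0.07 (adjusted p 0.00722), Bik by 0.29 ± 0.07 (adjusted p 0.0111, and 0.0551 without precursor 1) and Mcl1 by 0.62 ± 0.17 (adjusted p 0.0221, up to 0.0958 without precursor 1 or 3). Of 12 measured p53 targets, 3 were higher and 2 were lower (41.7% called, against 33.8% of all genes). These were 2 and 0 without precursor 3, where 21.2% of all genes were called, and 1 and 2 without precursor 2. Sesn1 rose by 1.21 ± 0.28 (adjusted p 0.0116, and 0.0545 without precursor 2) and Trp53inp1 fell by 1.25 ± 0.29 (adjusted p 0.0115, and 0.0529 without precursor 3).

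Of the genes in the fusion, Bcr was at 8.83, 9.17 and 9.61 in the leukaemias and at 10.20, 9.87 and 10.05 in the precursors, a fall of 0.81 ± 0.16 (adjusted p 0.0062). Abl1 changed by -0.34 ± 0.14 and did not pass (adjusted p 0.0855). The probe sets do not separate the mouse genes from the transgene. The list of genes that damp ERK signalling or are induced by it was split, with 2 of 13 higher and 2 lower. The share called was 30.8%, against 33.8% of all genes. Spred1 rose by 2.59 ± 0.55 (adjusted p 0.00795) and Spry1 by 1.27 ± 0.34 (adjusted p 0.019, up to 0.0658 without precursor 1 or 3), while Dusp5 fell by 1.51 ± 0.30 (adjusted p 0.00578) and Spry2 by 1.47 ± 0.27 (adjusted p 0.00472).

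Immediate early genes, which respond to signals within minutes and also to the handling of cells, included 5 of 16 that were lower and 0 that were higher, with a median of -0.45, where 22.4% of all genes were lower. Their called share of 31.25% was below the 33.8% of all genes. Jund was at 8.50, 8.70 and 9.40 in the leukaemias and at 10.90, 10.57 and 10.92 in the precursors, a fall of 2.01 ± 0.19 (adjusted p 0.000197). Btg2, an inhibitor of proliferation, fell by 2.72 ± 0.33 (adjusted p 0.000716), Zfp36, which destabilises mRNAs, by 1.87 ± 0.23 (adjusted p 0.000786) and Fosb by 1.75 ± 0.17 (adjusted p 0.000221). NF-kB genes divided into 4 that were higher and 6 that were lower of 14 (71.4% called, against 33.8% of all genes). Without precursor 3 these were 1 and 3, where 21.2% of all genes were called, and without leukaemia 7 they were 2 and 6. The inhibitor Nfkbie fell by 1.48 ± 0.22 (adjusted p 0.00157) and the negative regulator Tnfaip3 by 1.19 ± 0.26 (adjusted p 0.00895), the subunit Rela fell by 0.40 ± 0.09 (adjusted p 0.0105), and the adhesion molecule Icam1 rose by 0.94 ± 0.16 (adjusted p 0.00352).

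The MYC and ribosome biogenesis list had the highest share of rises among the 29 programme lists, with 16 of 22 genes higher and 0 lower, where 11.4% of all genes were higher. Its median was 0.81 and its mean level was 9.53 to 10.44 in the leukaemias and 8.92 to 9.15 in the precursors. Without precursor 3 it had 10 higher and a median of 0.80. Nop58, of the ribonucleoprotein that modifies ribosomal RNA, was at 9.44, 9.90 and 10.23 in the leukaemias and at 8.32, 8.19 and 8.26 in the precursors, and rose by 1.58 ± 0.18 (adjusted p 0.000568). Mybbp1a, a nucleolar protein, rose by 1.47 ± 0.23 (adjusted p 0.00197), Ncl (nucleolin) by 0.92 ± 0.15 (adjusted p 0.00246) and Wdr43, of ribosome assembly, by 0.94 ± 0.18 (adjusted p 0.00528). Myc was at 9.74, 10.65 and 11.74 in the leukaemias and at 9.56, 9.43 and 7.40 in the precursors. Its rise of 2.03 ± 0.56 (adjusted p 0.0223) leaned on precursor 3, without which its adjusted p was 0.0898.

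Genes of the cell cycle were marked by the same array. Of 27 mitosis genes 6 were higher and 0 lower with a median of 0.65, and of 30 DNA replication genes 6 were higher and 1 was lower with a median of 0.32. The called shares, 22.2% and 23.3%, were below the 33.8% of all genes. Without precursor 1, 12 mitosis genes were higher. Without precursor 3 these became 1 higher of the mitosis genes with a median of 0.15, and 0 in either direction of the replication genes with a median of 0.11, where 21.2% of all genes were still called. Cenpf, a kinetochore protein, shows the pattern, at 9.08, 9.36 and 9.66 in the leukaemias and at 9.01, 8.74 and 7.37 in the precursors (0.99 ± 0.30, adjusted p 0.0325, lost without precursor 3 or leukaemia 1 or 2, with an adjusted p of up to 0.0632). Ndc80, also of the kinetochore, kept its call in each of these fits (0.82 ± 0.17, adjusted p 0.00795). Mki67, the proliferation antigen, did not pass, at 11.74, 11.88 and 12.44 in the leukaemias and at 12.10, 11.83 and 11.02 in the precursors (adjusted p 0.294).

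In the list of D cyclins, CDKs and RB genes 5 of 18 were higher and 2 lower, a share of 38.9% called against 33.8% of all genes, and 2 were higher and 0 lower without precursor 3. Ccnd2, the D cyclin of pre-B cells, was at 11.62, 11.97 and 12.19 in the leukaemias and at 10.61, 10.42 and 8.79 in the precursors, and rose by 1.99 ± 0.34 (adjusted p 0.00328). Its partner Cdk6 was at 11.56, 11.82 and 12.62 in the leukaemias and at 11.38, 10.63 and 10.32 in the precursors, and rose by 1.19 ± 0.25 (adjusted p 0.00819). Ccnd1 rose by 2.26 ± 0.63 (adjusted p 0.0228, up to 0.1 without precursor 3, and lost without precursor 1). The inhibitor Cdkn1b fell by 0.87 ± 0.22 (adjusted p 0.0149, up to 0.0674 without precursor 1 or 3).

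Metabolic genes, the subject named in the title, were examined pathway by pathway. Of 20 genes of glucose uptake and glycolysis 10 were higher and 1 was lower (55% called, against 33.8% of all genes), with a median of 0.42. Without precursor 3 these were 6 and 1, where 21.2% of all genes were called. Ldha, which makes lactate, was at 12.09, 12.31 and 12.50 in the leukaemias and at 11.28, 10.94 and 10.997 in the precursors, a rise of 1.21 ± 0.11 (adjusted p 0.000189) or 2.31-fold. Pdk1, the kinase that turns pyruvate away from mitochondria, rose by 1.73 ± 0.21 (adjusted p 0.000695) and Pgk1 by 1.09 ± 0.16 (adjusted p 0.00158). Slc2a3, which encodes the glucose transporter GLUT3, was at 9.61, 10.31 and 10.98 in the leukaemias and at 8.21, 8.15 and 7.44 in the precursors, a rise of 2.35 ± 0.33 (adjusted p 0.00127) or 5.10-fold. The transporter gene Slc2a1 (GLUT1) did not pass, at 9.05, 9.81 and 10.12 in the leukaemias and at 9.69, 9.66 and 9.58 in the precursors (adjusted p 0.78). Pfkfb3, which makes an activator of phosphofructokinase, fell by 1.00 ± 0.18 (adjusted p 0.00381).

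Of 11 measured genes of the metabolic programme that PAX5 and IKZF1 are known to control, 3 were higher and 0 lower (27.3% called, against 33.8% of all genes), namely Slc2a3, Slc2a6, another sugar transporter (1.20 ± 0.27, adjusted p 0.0106), and Hk2, a hexokinase (0.76 ± 0.22, adjusted p 0.0282, up to 0.0986 without precursor 2 or 3). Txnip, an inhibitor of glucose uptake that PAX5 activates, was at 10.94, 11.69 and 12.20 in the leukaemias and at 11.47, 10.72 and 11.91 in the precursors and did not pass (adjusted p 0.635). In the pentose phosphate pathway 2 of 6 genes were higher, Pgd (0.85 ± 0.17, adjusted p 0.00571) and Tkt (0.81 ± 0.20, adjusted p 0.0153, and 0.0698 without precursor 3), and 2 were lower, Pgls (-1.47 ± 0.31, adjusted p 0.00781) and Rpia (-1.11 ± 0.17, adjusted p 0.0019). That is 66.7% of the pathway called, against 33.8% of all genes.

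In the citric acid cycle and fatty acid oxidation 8 of 25 genes were higher and 1 was lower, with a median of 0.12. The share called was 36%, against 33.8% of all genes. Without precursors 1, 2 and 3 in turn, 5, 3 and 5 genes were higher. Idh3a, a subunit of isocitrate dehydrogenase, was at 9.88, 10.13 and 10.34 in the leukaemias and at 9.03, 8.59 and 8.72 in the precursors, and rose by 1.33 ± 0.11 (adjusted p 0.000138). Dlst, a subunit of the next enzyme, rose by 0.43 ± 0.06 (adjusted p 0.00111). Of 49 genes of oxidative phosphorylation 6 were higher and 4 were lower, a share of 20.4% called against 33.8% of all genes, with a median of 0.12 that came to 0.01 after median centring. Without precursor 3 these were 3 and 2, without precursor 1 they were 2 and 3, without precursor 2 they were 5 and 1, and without leukaemia 7 they were 3 and 4. Ndufc2, of complex I, rose by 0.74 ± 0.13 (adjusted p 0.0034). Cox8a, of complex IV, fell by 0.31 ± 0.07 (adjusted p 0.0119), and did not pass after cyclic loess.

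Of 17 antioxidant genes 9 were higher and 1 was lower (58.8% called, against 33.8% of all genes), with a median of 0.61. Gsr, glutathione reductase, was at 9.55, 9.95 and 10.86 in the leukaemias and at 7.49, 7.70 and 7.44 in the precursors, a rise of 2.58 ± 0.28 (adjusted p 0.000443). Txnrd1, its thioredoxin counterpart, rose by 1.17 ± 0.12 (adjusted p 0.000357), Prdx1 by 1.03 ± 0.14 (adjusted p 0.00125) and mitochondrial Sod2 by 0.88 ± 0.08 (adjusted p 0.000199). Gclc, the catalytic subunit of glutathione synthesis, was at 9.88, 10.15 and 10.50 in the leukaemias and at 11.63, 11.31 and 11.89 in the precursors, and fell by 1.40 ± 0.15 (adjusted p 0.000355). Gsr and Gclc therefore lay on opposite sides with no overlap between the groups in either.

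Of 20 genes of amino acid transport and the ATF4 response 6 were higher and 5 lower (55% called, against 33.8% of all genes). Slc7a5, which with Slc3a2 forms the carrier of large neutral amino acids, was at 10.85, 11.13 and 12.21 in the leukaemias and at 9.35, 9.18 and 8.38 in the precursors, and rose by 2.30 ± 0.30 (adjusted p 0.00101). Slc3a2 rose by 1.09 ± 0.15 (adjusted p 0.00135), Slc7a1, a carrier of arginine, by 1.44 ± 0.20 (adjusted p 0.0013) and Shmt2, of mitochondrial serine use, by 1.36 ± 0.19 (adjusted p 0.0013). Slc7a3, also a carrier of basic amino acids, fell by 0.26 ± 0.06 (adjusted p 0.00922), and did not pass after quantile normalization or cyclic loess. The factors Atf4 and Ddit3 fell by 0.57 ± 0.12 (adjusted p 0.00811) and 0.58 ± 0.09 (adjusted p 0.00196). Of 23 genes of cholesterol and fatty acid synthesis 4 were higher and 1 lower, a share of 21.7% called against 33.8% of all genes. Those that rose included the desaturases Fads2 (2.24 ± 0.30, adjusted p 0.00108) and Fads1 (1.37 ± 0.28, adjusted p 0.00695).

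**Figure D2:**
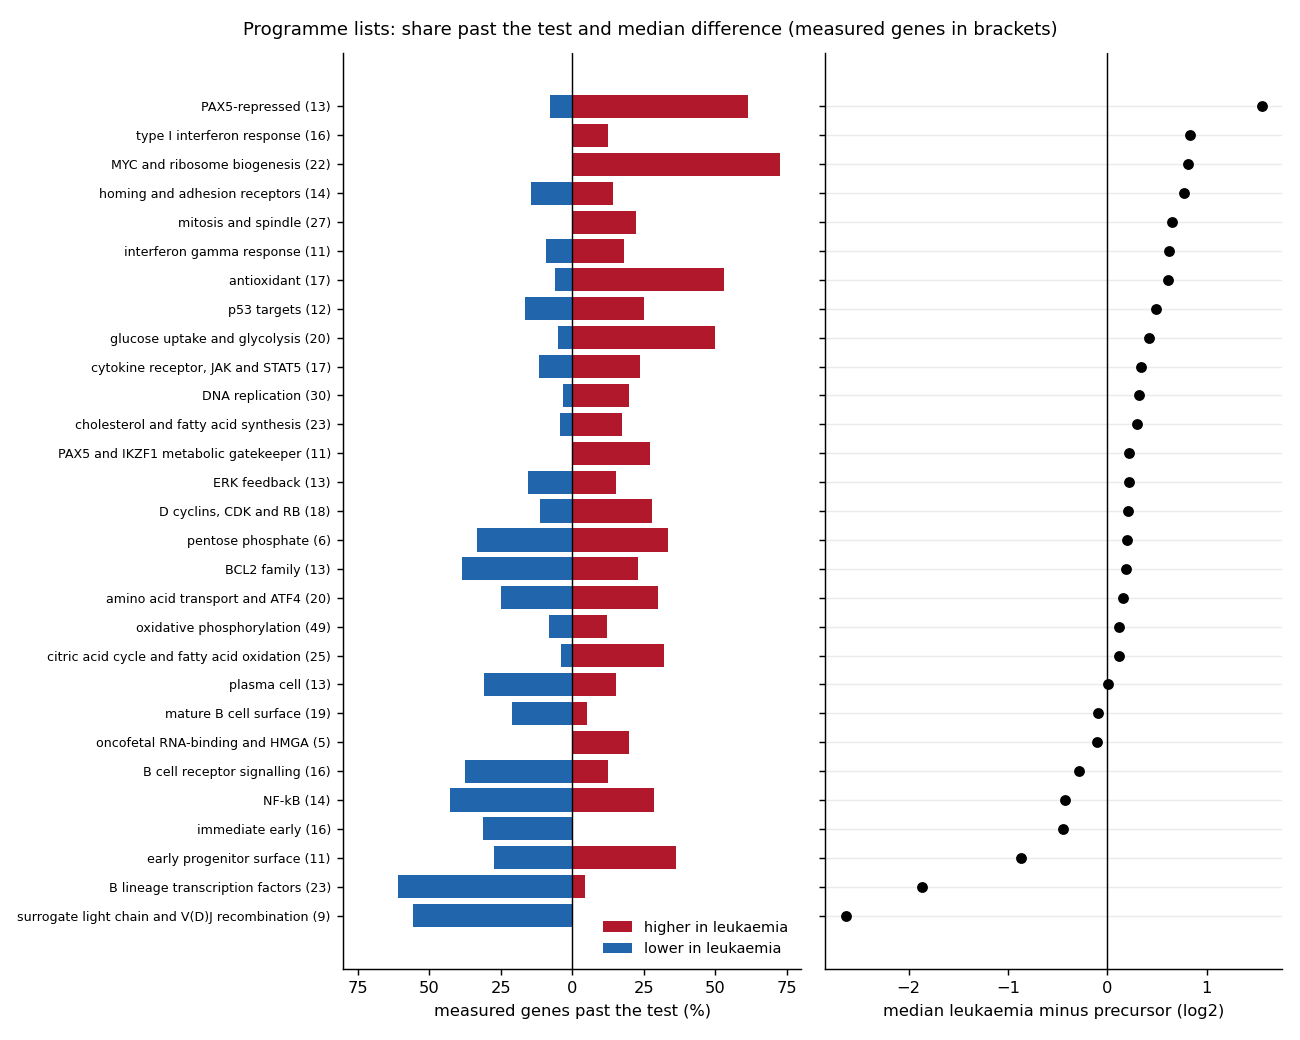
For 29 programme lists, the percentage of measured genes past the test (higher in heterozygous leukaemia to the right, lower to the left) and the median log2 difference, leukaemia minus precursor. Bars for B lineage factors (14 of 23 lower) and the surrogate light chain and V(D)J list (5 of 9 lower) point left, and those for PAX5-repressed (8 of 13 higher) and MYC and ribosome biogenesis genes (16 of 22 higher) point right.

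Among markers of other marrow cells, the macrophage, stromal, endothelial and platelet lists were higher in the leukaemias, where 11.4% of all genes were higher. The leukaemias were marrow and the precursors selected cells, which cannot be told apart from stage. Of 16 measured monocyte and macrophage markers 11 were higher and 0 lower, with a median of 2.92 and a mean level of 7.75 to 9.91 in the leukaemias, against 6.35 to 6.53 in the precursors. Of 12 stromal and matrix genes 8 were higher (mean level 6.83 to 9.12, against 6.05 to 6.13), of 8 endothelial genes 7 were higher and 1 lower (7.37 to 8.99, against 6.93 to 7.01), and of 8 platelet genes 3 were higher (7.84 to 10.74, against 7.20 to 7.30). Neutrophil genes (1 of 16 higher, 7.06 to 9.58, against 7.20 to 7.54) and erythroid genes (0 of 10, 7.17 to 11.20, against 7.76 to 7.92) ranged on both sides of the precursors. T cell (1 higher and 1 lower of 9), NK cell (2 of 10 higher), stem cell (2 of 7 higher), dendritic (0 of 7), and eosinophil, basophil and mast cell markers (0 of 6) had few calls. The array gives no level of 0, and the part of these cells in the results of other lists was not tested.

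Of the 12 largest rises, Ppbp, Sparc, Bgn and the NK cell receptor gene Klri1 were on these marker lists. Ppbp, a platelet chemokine, was at 10.31, 12.98 and 13.62 in the leukaemias and at 6.73, 6.44 and 6.44 in the precursors, and rose by 5.92 ± 0.70 (adjusted p 0.000637). Sparc and Bgn, matrix proteins of stroma, rose by 4.70 ± 0.44 (adjusted p 0.000197) and 4.60 ± 0.48 (adjusted p 0.000322). Mrc1, the mannose receptor of macrophages, rose by 4.30 ± 0.67 (adjusted p 0.0021), Vcam1, an adhesion molecule of macrophages and stroma, by 4.19 ± 0.71 (adjusted p 0.00317), and Cdh5, the cadherin of endothelium, by 1.91 ± 0.32 (adjusted p 0.003). Wfdc17, Serping1, Mt2 and Thbs1, a set of secreted or stress-induced proteins, rose by between 4.39 and 4.64. For Ppbp, Sparc, Bgn, Mrc1, Vcam1, Cdh5, Wfdc17, Serping1, Mt2 and Thbs1 the lowest leukaemia was number 7, which still lay above all 3 precursors. Without leukaemia 7, 15 macrophage, 9 stromal and 7 endothelial genes were higher.

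**Figure D3:**
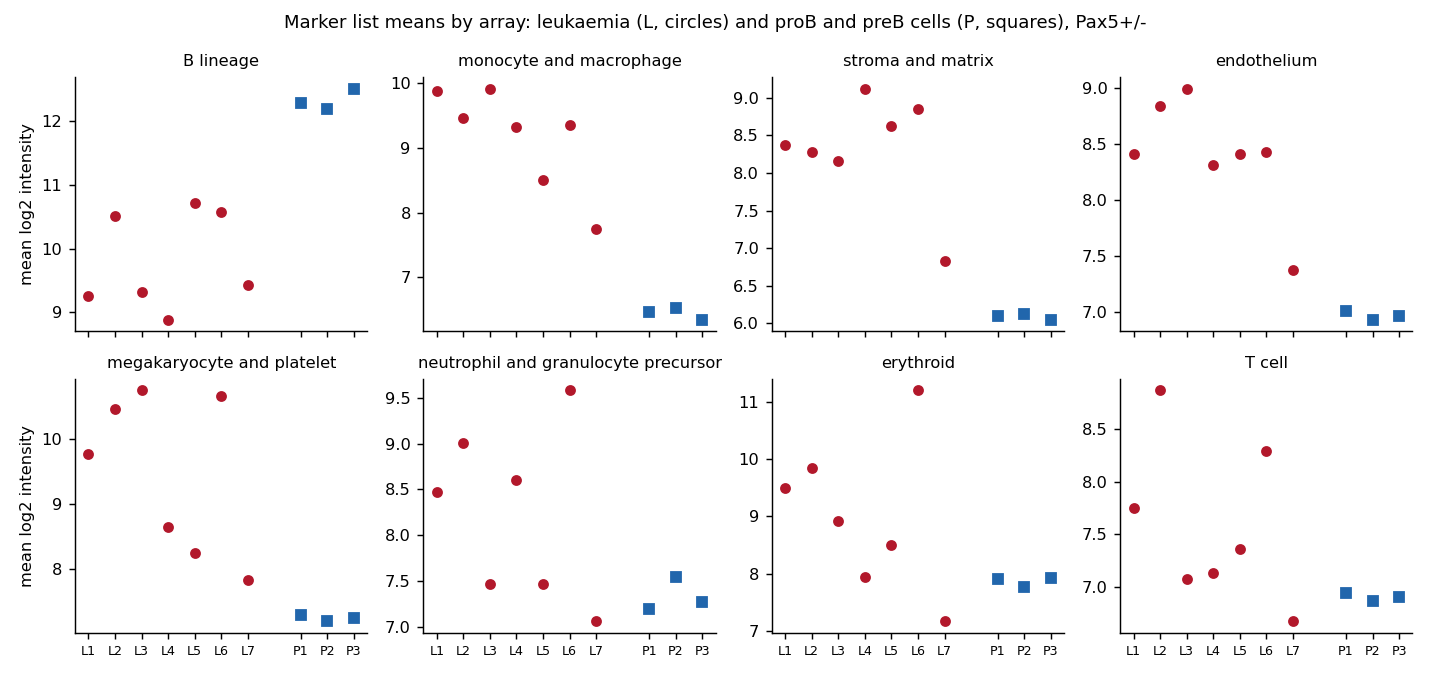
Mean log2 intensity of 8 marker lists in each of the 7 heterozygous leukaemias (circles) and 3 heterozygous precursors (squares). B lineage markers are lower in every leukaemia, macrophage, stromal, endothelial and platelet markers are higher in every leukaemia, and leukaemia 7 is the lowest leukaemia in each panel but that of the B lineage.

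Interferon-induced genes varied from leukaemia to leukaemia. The mean of 16 measured type I interferon genes was 9.01, 9.12, 9.12, 8.78, 7.62, 8.16 and 7.40 in leukaemias 1 to 7, against 7.84, 7.49 and 7.66 in the precursors. Only 2 of these genes passed (12.5%, against 33.8% of all genes), with a median of 0.83 over the list. Leukaemias 5 and 7 were at the level of the precursors and leukaemias 1 to 4 were about 1 log2 unit above. Ifih1, the viral RNA sensor MDA5, was at 8.32, 8.85, 8.76, 8.42, 6.96, 7.91 and 6.91 in leukaemias 1 to 7 and at 6.80, 6.64 and 6.67 in the precursors. It rose by 1.31 ± 0.44 (adjusted p 0.0439) and Oasl2, an antiviral protein, by 1.56 ± 0.52 (adjusted p 0.0435), and both calls were lost in 8 of 10 fits that left out 1 array (adjusted p up to 0.117 and 0.127). Of 14 genes of this list with a promoter window 8 held the interferon motif shown in Ifih1, against 3.99% of all genes. In the interferon gamma list 2 of 11 genes were higher and 1 lower, a share of 27.3% called against 33.8% of all genes. Its median was 0.62 and its mean level was 8.40 to 10.39 in the leukaemias and 8.02 to 8.06 in the precursors. In 7 of the 11 genes all 7 leukaemias lay above all 3 precursors, as in 10.7% of all genes, and in 1 all lay below. The gene that was lower, Ido1 (-0.21), lost its call in 8 of 10 fits that left out 1 array. Cxcl9, a chemokine induced by interferon gamma, rose by 4.74 ± 0.90 (adjusted p 0.00504), with levels of 7.45, 11.04 and 12.92 in the leukaemias and 5.96, 6.24 and 6.00 in the precursors.

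Homing receptors had 2 of 14 genes higher and 2 lower, a share of 28.6% called against 33.8% of all genes. Cxcr4, which holds B precursors in the marrow, was at 11.11, 11.22 and 11.78 in the leukaemias and at 12.25, 12.20 and 12.36 in the precursors, and fell by 0.98 ± 0.13 (adjusted p 0.00112). The integrin chains Itgb1 and Itgal rose by 1.59 ± 0.27 (adjusted p 0.00311) and 1.24 ± 0.25 (adjusted p 0.006). Cd4, which marks helper T cells and some macrophages and dendritic cells, was at 7.84, 8.73 and 9.68 in the leukaemias and at 6.92, 6.42 and 6.63 in the precursors (2.23 ± 0.39, adjusted p 0.00342), while the T cell gene Cd3e did not pass (adjusted p 0.212).

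The largest falls included genes beyond the B lineage lists. Cpm, carboxypeptidase M, was at 5.37, 6.33 and 7.23 in the leukaemias and at 11.44, 11.67 and 12.34 in the precursors, a fall of 5.47 ± 0.39 (adjusted p 6.94e-05) that made precursor levels 44.2-fold higher. Lgr5, a Wnt co-receptor of epithelial stem cells, varied little within either group, at 5.64, 5.85 and 5.99 in the leukaemias and at 9.35, 9.27 and 9.82 in the precursors, and fell by 3.65 ± 0.12 (adjusted p 1.15e-06). Polm, the DNA polymerase that joins light chain segments, was at 6.23, 6.59 and 7.00 in the leukaemias and at 10.46, 10.41 and 10.97 in the precursors, and fell by 4.04 ± 0.19 (adjusted p 5.74e-06). Otub2, a deubiquitinase, fell by 4.33 ± 0.36 (adjusted p 0.000138), Niban3 by 4.27 ± 0.64 (adjusted p 0.0018), Reln, the extracellular protein reelin, by 4.09 ± 0.38 (adjusted p 0.000198), Trib2, a pseudokinase, which fell by 3.78 ± 0.49 (adjusted p 0.000933) and Akap12, a scaffold protein, by 3.64 ± 0.41 (adjusted p 0.000477). Polm and Lgr5 had a narrow range in the leukaemias, where Rag1 and Vpreb3 did not. Those levels of Polm and Lgr5 were near or below the array medians over all genes, which were 6.86 to 7.11. Rag1 was also close together, at 5.56 to 6.04, in leukaemias 1, 3, 4 and 7, where it was low. Whether low signal accounts for the narrow range was not tested.

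The 6 most variable genes split the leukaemias into high and low arrays, and their levels are a description, since they were chosen for their spread. Gria2, a glutamate receptor subunit, was at 9.75, 10.50, 11.28 and 11.23 in leukaemias 1, 3, 4 and 7 and at 4.95, 4.83 and 4.74 in leukaemias 2, 5 and 6, against 4.90, 4.93 and 4.79 in the precursors. The split is that of Rag1 and Vpreb3 turned round. Kir3dl1 and Kir3dl2, receptors of the killer immunoglobulin-like family, were highest in leukaemia 7 (10.47 and 11.52) and leukaemia 1 (9.70 and 9.86), and Kir3dl1 was at 8.28 in leukaemia 4. Cdh17, a cadherin, was high in leukaemias 2, 6 and 3 (12.20, 11.56 and 9.06) and at 6.29 or below in the other 4. Mrgpra1, a sensory receptor of the Mas family, ranged from 5.81 in leukaemia 1 to 12.38 in leukaemia 4. H2-Ea, an MHC class II gene that some mouse strains do not express, was at 6.32 and 6.36 in leukaemias 5 and 6 and between 11.50 and 13.04 in the other 5, against 12.65, 12.16 and 12.42 in the precursors. Its range was as wide in wild-type B220+ cells, from 6.48 to 12.87.

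Over all genes, the SD among leukaemias had a median of 0.169 and that among precursors a median of 0.107, and 13825 of 19938 genes had the larger SD in the leukaemias.

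The step from precursor to leukaemia was then set against the same step in transgene-only mice, in a fit over all 24 arrays. The stage difference itself differed for 138 genes, 0.692% of all genes, with 45 genes (0.226%) having the more positive step in heterozygotes and 93 (0.466%) the more negative one. At an unadjusted p of 0.05 the number was 2614. Genes with the more positive step made up 32.6% of these calls, against 19.7% after median centring, 45.4% after quantile normalization and 50.3% after cyclic loess. The count rests on single arrays, above all on the 2 transgene-only leukaemias, since it was 301 without leukaemia 1 and 1381 without leukaemia 2 of that group. It was 80 without heterozygous precursor 1, 52 and 59 without transgene-only precursors 2 and 3, and 211 and 222 without heterozygous leukaemias 5 and 6.

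In 4 of the named genes the step passed the test in heterozygotes and was near 0 in transgene-only mice. Igf2bp3, an oncofetal RNA-binding protein, was at 7.80, 9.19 and 9.60 in the heterozygous leukaemias, against 6.62, 6.46 and 6.19 in their precursors, a rise of 2.67 ± 0.34 (adjusted p 0.000895). In transgene-only mice it was at 5.68 and 5.69 in the leukaemias and at 6.01 to 6.20 in the precursors, and the steps differed by 3.08 ± 0.41 (adjusted p 0.000811). It was the single called gene of 5 in the oncofetal list, whose median change was -0.11. Plch1, a phospholipase C, and Ston1, an endocytic adaptor, had the same pattern, with differences of 3.01 ± 0.48 (adjusted p 0.00443) and 2.75 ± 0.43 (adjusted p 0.00408). The calls of Igf2bp3, Plch1 and Ston1 held in each of 15 fits that left out 1 array, with an adjusted p of up to 0.0175. Serpinb9d, a granzyme inhibitor homologue, was at 11.19, 11.50, 10.52, 6.63, 10.26, 9.26 and 10.88 in heterozygous leukaemias 1 to 7 and between 4.53 and 4.78 in every array of the other 5 groups. Its steps differed by 5.36 ± 1.05 (adjusted p 0.0172, and up to 0.0576 without transgene-only precursor 2 or 3).

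Il2ra was lower in both leukaemia groups than in their precursors, and by less in heterozygotes. It was at 9.52, 10.49 and 12.11 in heterozygous leukaemias and at 12.24, 12.36 and 12.82 in their precursors, against 7.08 and 8.18 in transgene-only leukaemias and 11.95 to 12.31 in their precursors. The difference was 2.88 ± 0.62 (adjusted p 0.0339, up to 0.121 without transgene-only leukaemia 1, and also lost without heterozygous precursor 1 or 2 or transgene-only precursor 2 or 3). For Cd37, a tetraspanin of B cells, the difference was 1.02 ± 0.24 (adjusted p 0.0496), lost in 10 of 15 such fits (up to 0.161).

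A few granulocyte genes had the more negative step in heterozygotes. Prtn3, proteinase 3 of neutrophil granules, was at 6.31, 7.31 and 8.52 in heterozygous leukaemias and at 6.80, 6.43 and 6.37 in their precursors, against 10.98 and 11.76 in transgene-only leukaemias and 6.33 to 7.98 in their precursors. The steps differed by -3.60 ± 0.64 (adjusted p 0.0091), and the call held in all 15 fits that left out 1 array, as did that of Padi4, which citrullinates histones in neutrophils (-2.88 ± 0.50, adjusted p 0.00742). Ms4a3, a gene of granulocyte and monocyte precursors (-3.01 ± 0.57, adjusted p 0.0146, lost without transgene-only leukaemia 1 or precursor 2 or 3, up to 0.0687), and Fcnb, a ficolin of myeloid cells (-2.81 ± 0.52, adjusted p 0.0124, lost without transgene-only leukaemia 1 or precursor 2, up to 0.0538), also had the more negative step. Mc5r, a melanocortin receptor, differed by -3.98 ± 0.85 (adjusted p 0.0316) and was at 7.32 and 11.93 in the 2 transgene-only leukaemias. Its call was lost without any of the heterozygous precursors and without transgene-only precursor 2 or 3 (adjusted p up to 0.0915). Of 16 neutrophil markers 3 had the more negative step and 0 the more positive one, where 0.466% of all genes had the more negative step. The mean level of this list was 7.06 to 9.58 in heterozygous leukaemias and 7.20 to 7.54 in their precursors, 11.37 and 11.98 in transgene-only leukaemias and 7.31 to 10.67 in their precursors, and the part of neutrophils in these differences was not tested. Of 14 of them with a promoter window, 5 held the PU.1 motif, namely Elane, Mpo, Prtn3, S100a8 and Mmp8, against 3.69% of all genes.

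The difference between the 2 steps did not pass for most of the lists above, a result that does not show that they are alike. None of the 23 B lineage factors, 9 surrogate light chain and V(D)J genes and 13 PAX5-repressed genes passed the limma test of the difference. Nor did any of the 22 MYC and ribosome genes, 20 glycolytic genes and 17 antioxidant genes. Only 0.692% of all genes passed it, so counts of 0 in lists of this size are near the share over all genes. For Pax5 the steps were -1.72 in heterozygotes and -3.81 in transgene-only mice, and their difference of 2.08 did not pass (adjusted p 0.29). For Emb they were 4.58 and 4.63, and for Ldha 1.21 and 1.38.

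**Figure D4:**
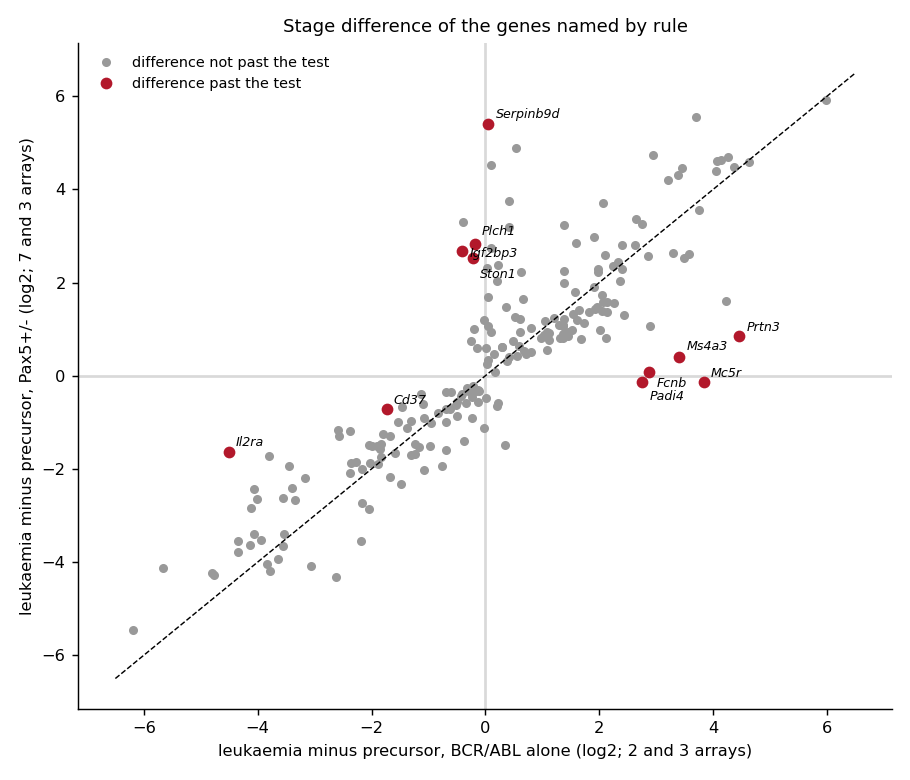
The log2 step from precursor to leukaemia of the 216 genes named by rule, in heterozygotes (vertical, 7 and 3 arrays) and in transgene-only mice (horizontal, marked BCR/ABL alone, 2 and 3 arrays), with a line of equality. The 11 genes whose steps differed past the test are labelled, and lie above the line for Serpinb9d, Igf2bp3, Plch1, Ston1, Il2ra and Cd37 and below it for Prtn3, Mc5r, Ms4a3, Fcnb and Padi4.

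Set against the difference between wild-type B220+ cells and wild-type precursors, the heterozygous step differed for 6016 genes (30.2%), with 2471 genes (12.4%) more positive and 3545 (17.8%) more negative. The more positive share of 41.1% of calls was 18.1% after median centring, where the median gene was -0.25, and 53.6% after cyclic loess, where it was 0.00. All 9 wild-type arrays were from females. All 27 mitosis genes and 24 of 30 replication genes were more positive in the heterozygous step, with medians of 2.44 and 1.21. The wild-type difference for the mitosis list was -1.77, where B220+ cells, which include resting B cells, were lower than precursors. The B lineage markers were more negative for 11 of 11 genes and the mature B cell genes for 14 of 19, with wild-type medians of 0.25 and 1.58. Fcmr, for instance, fell by 3.55 in heterozygotes and was 2.40 higher in B220+ cells than in wild-type precursors, a difference of -5.95 ± 0.57 (adjusted p 6.29e-07). Ms4a1, which encodes CD20, differed by -4.73 ± 0.80 (adjusted p 0.000219).

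Jchain (7.18 ± 0.77, adjusted p 2.43e-06), Emb (5.29 ± 0.60, adjusted p 4.59e-06), Serpinb9d (5.38 ± 0.88, adjusted p 0.000158) and Rnase12, a ribonuclease A family gene (5.30 ± 1.20, adjusted p 0.00257), were among the 5 most positive. The other was Kcnma1, the pore subunit of a calcium-activated potassium channel. It was high in all heterozygous leukaemias (12.94, 13.62 and 13.78), high in heterozygous precursors 1 and 2 (13.89 and 12.77) and low in precursor 3 (6.32). In transgene-only mice it was at 11.52 and 13.50 in leukaemias and at 6.92, 13.88 and 6.26 in precursors, and in the wild-type groups between 6.09 and 6.79 in B220+ cells and at 12.62, 11.43, 13.29 and 8.68 in precursors. Its step in heterozygotes did not pass (2.53 ± 1.29, adjusted p 0.151).

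**Figure D5:**
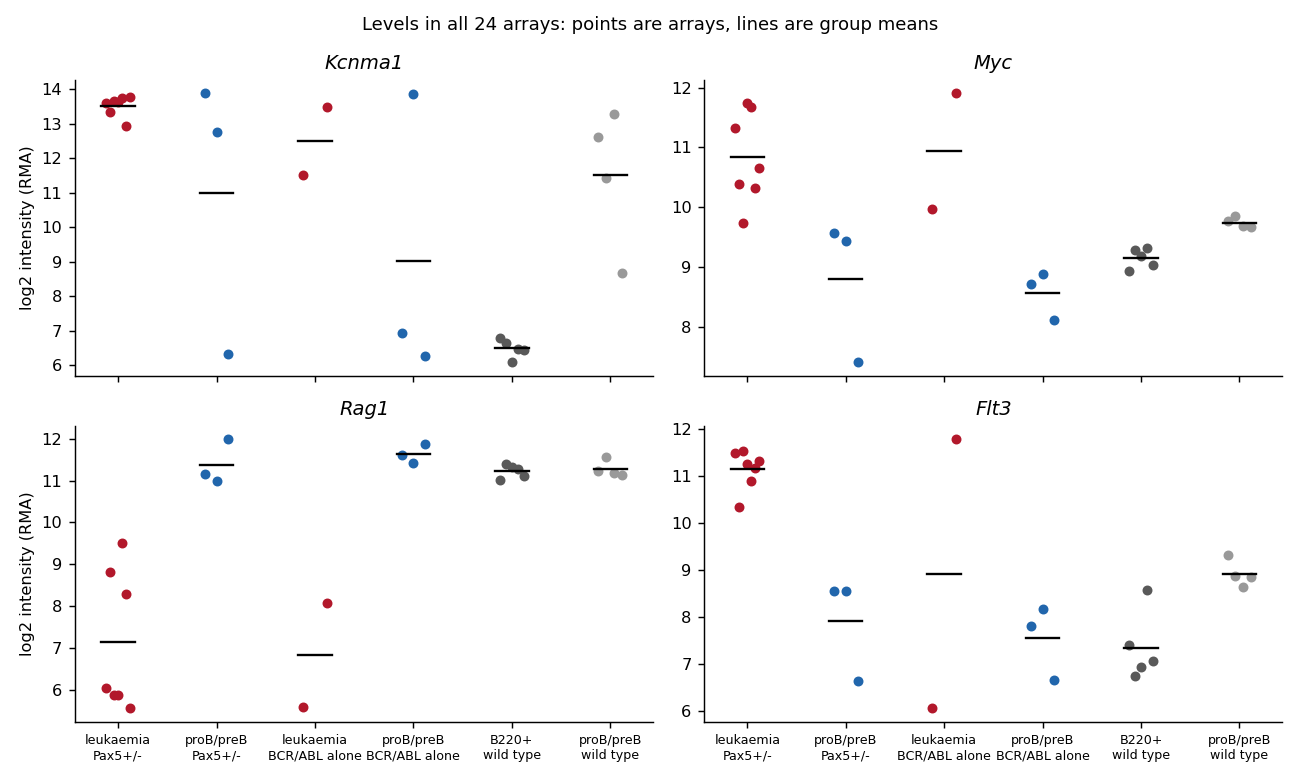
Log2 intensity of Kcnma1, Myc, Rag1 and Flt3 in all 24 arrays by group (transgene-only groups are marked BCR/ABL alone), each leukaemia group left of its precursors and B220+ cells left of wild-type precursors, with points for arrays and lines for group means. Kcnma1 is near 13 in all heterozygous leukaemias and split between high and low arrays in the precursor groups, and Rag1 is lower in all 9 leukaemias than in any of the other arrays.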

How the data were processed

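RNA from 24 mouse marrow samples was measured on Affymetrix gene arrays. The authors deposited log2 intensities made with RMA in the oligo package, per the submitters' processing notes, with 1 value per probe set and array. Of 35556 probe sets, 21789 had 1 gene symbol, 1621 had several and 12146 had none, and 21698 matched a RefSeq gene. Each of 19938 genes was represented by its probe set with the highest mean over the 24 arrays, which settled 999 genes with more than 1. Samples were grouped by title. The stage comparison was fitted on its 10 arrays with limma 3.58.1 in R 4.3.3, and the comparisons between stage differences on all 24. P-values were adjusted over all genes by the Benjamini-Hochberg method at 0.05. The 10 arrays were fitted alone because spread differed between groups. The fits on all 24 arrays share a common spread, which the less variable precursors can lower for the leukaemias, so their p-values can be too small.

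The members, lists and tests were chosen with earlier results of these data known. The rule for named genes took Bcr, Abl1 and Pax5, the 12 genes that rose and the 12 that fell furthest without overlap, up to 4 called members of each list in each direction, the full B lineage factor and surrogate light chain lists, the 6 most variable genes and the 5 largest differences each way in each comparison of steps. Il7r, Mki67, Slc2a1, Txnip, Cd3e, Notch1, Prdm1 and Ccl3, and genes named for a promoter motif, were chosen after their values were seen. Alternatives covered scaling, dim genes, probe set choice, weights, sex, the spread and each array left out. Counts without precursor 3 or leukaemia 7 were added after seeing the data. Scripts were tested on simulated data. The labels give biological replicates and name no batch, so batch was not analysed here. The design text gives 3 wild-type precursor mice and the labels give 4, all of which were used.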

Additional observations from a re-analysis of the deposited data

Results flagged for a closer look

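In 18 of 257 sets of 7 leukaemia levels (7.00%), 1 array lay far from the other 6 by Dixon's criterion. For a single set not chosen from the data, chance gives about 1 in 20. These sets were the genes named by rule and the list means, which overlap and were partly chosen from these arrays. The rate of 1 in 20 is therefore no measure of chance for the 18. Leukaemia 7 was that array 9 times, leukaemias 2 and 6 were 3 times each, leukaemia 5 was 2 times, leukaemia 3 was 1 time and leukaemias 1 and 4 were 0 times. Single genes with such an array were Atf5 (7.01), Bgn (8.89), Cxcl9 (7.45), Cxcr4 (11.78), Erg (7.77), Fcmr (8.76), Igf2bp3 (7.80), Niban3 (11.31), Postn (6.03), Prdx1 (11.69), Serping1 (8.22), Sparc (9.65) and Tie1 (6.75), each value being the log2 level in the array that stood apart. Mean levels of lists with such an array were those of p53 targets (8.59) and the interferon gamma response (10.39) in leukaemia 2, the oncofetal list (6.24) in leukaemia 6, and stroma (6.83) and endothelium (7.37) in leukaemia 7.

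The stage difference of 11 named genes differed between heterozygous and transgene-only mice by limma's test, as described above. The difference was 5.36 for Serpinb9d, 3.08 for Igf2bp3, 3.01 for Plch1, 2.88 for Il2ra, 2.75 for Ston1 and 1.02 for Cd37. It was -3.98 for Mc5r, -3.60 for Prtn3, -3.01 for Ms4a3, -2.88 for Padi4 and -2.81 for Fcnb. The transgene-only side of each value rests on 2 leukaemias and 3 precursors.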

How the results depend on the processing

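The count of 6737 genes in the stage comparison became 10130 with array weights, 3783 without dim genes, of which 54.6% were higher, 1357 where a change of 1 or more on the log2 scale was also asked for, and 4043 to 6565 with 1 array left out. The replicate block gave 2589 genes, though same-numbered leukaemias and precursors did not deviate together (r of -0.05, 0.01 and 0.04), and the numbers pair no samples by their labels. The 138 genes of the comparison with transgene-only mice became 38 with array weights, 209 with the replicate block and 52 to 1381 with 1 array left out. Of the 10 genes named as its largest differences, 5 lost their call with array weights. The 6016 genes of the comparison with wild-type mice became 11138 after median centring, 9958 with array weights and 4741 to 6272 with 1 array left out. Among repeats of single-gene stage differences, 4155 kept direction and side of the threshold, 317 lost the call, 45 gained it and 9 reversed. Those that reversed had not passed, namely Bcl6 (0.13) and Irf8 (0.24) with the replicate block, and Fcnb (-0.0444) and Spi1 (-0.0435) after median centring, and with 1 array left out Fcnb ranged from -0.0383 to 0.1365 and Spi1 from -0.0351 to 0.1841. The correlation of Pax5 with the list means ranged, with 1 leukaemia left out, from -0.58 to 0.0202 for B lineage, -0.90 to 0.0559 for NK cells, -0.60 to 0.0924 for erythroid, -0.61 to 0.33 for platelet, -0.85 to 0.23 for macrophage, -0.34 to 0.51 for neutrophil, -0.73 to 0.36 for stroma and -0.0822 to 0.53 for mitosis genes, the last also being -0.0118 after cyclic loess. Fewer genes were tested without dim genes and fewer arrays entered the fits that left arrays out, and for the other settings the cause was not tested. The precision is limited by 3 precursor arrays.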

Other observations

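The transcripts of the Y chromosome were lower in leukaemia 1 than in the 3 other male leukaemias. Their mean level was 7.09 in leukaemia 1, against 8.71 to 9.32 in leukaemias 4, 6 and 7, and 4.84 to 4.90 in the 3 female leukaemias.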
